A study of Mus musculus with 51 samples.

Results

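Entpd3, A2m, Slc36a2, Prss35, Rhbdl2, Slc13a5, Col13a1, Col22a1, Cdh15 and Crygn are 10 of the 23358 entries measured in the femur of vitamin C (VitC)-supplied and VitC-deprived mice. They are genes that the study listed as bone-selective but that are seldom used as markers of osteoblasts, the cells that build bone, or of osteocytes, the cells embedded in it. They were chosen by their lower level in VitC-deprived than in VitC-supplied femur, so their levels and calls in that experiment are given here as a description with no p-value, and only the Tet knockout femurs, which the choice did not use, serve as a test. That test is not blind, since the study had already reported lower expression of its bone-specific genes in mice without Tet1 and Tet2.

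Femur RNA was measured in 2 mouse experiments with 3 libraries per group, each from a separate animal. In the first, Gulo -/- C57BL/6 mice, which cannot make VitC, drank water with 3.3 g/L VitC; the VitC+ group stayed on it to the age of 20 weeks, the VitC+/- group had it withdrawn at 15 weeks and was also taken at 20 weeks, and wild-type (WT) mice of 20 weeks, which make VitC, were the reference. In the second, Prrx1-Cre, which acts in limb and part of the skull mesenchyme and not in blood-forming cells, removed floxed Tet1 (Tet1 cKO), Tet2 (Tet2 cKO) or both (Tet1/2 cKO), and Ctrl mice carried the same Cre without floxed alleles; all were C57BL/6 of 11 weeks and make their own VitC. The same groups (VitC+, VitC+/-, Ctrl and Tet1/2 cKO) and MC3T3-E1 cells, an immortal mouse calvarial pre-osteoblast line kept in osteogenic medium with 50 or 0 µg/ml VitC (VitC+ and VitC-), gave lists of regions enriched for 5-hydroxymethylcytosine (5hmC), and the cells also lists for the histone marks H3K27me3 and H3K9me3. Femurs were flushed of marrow and minced before RNA extraction, yet blood-cell transcripts were present in every femur library, and in such whole-tissue RNA fewer cells of a type and less RNA per cell cannot be told apart.

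The targeted genes could not check the labels. Gulo, the enzyme gene of VitC synthesis, is mainly a liver gene and stood at 0.537, 0.442 and 0 scaled RPKM (a per-length level) in WT, 0.238, 0.0335 and 0.0268 in VitC+ and 0.0123 to 0.0177 in VitC+/-. Tet1 had 374 to 435 normalized counts in Ctrl, 532 to 773 in Tet1 cKO and 415 to 485 in Tet1/2 cKO, and Tet2 had 2236 to 2512 in Ctrl, 1834 to 2245 in Tet2 cKO and 1851 to 2970 in Tet1/2 cKO. Cre removes 1 exon of each gene, so a count over the whole gene need not fall. The 3 VitC comparisons share libraries with each other, and the 3 Tet comparisons share the Ctrl libraries.

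VitC is a cofactor of enzymes that use iron and oxoglutarate, among them the TET enzymes, which oxidise methylated cytosine to 5hmC, and the demethylases that remove H3K9 and H3K27 methylation. 5hmC is often found in bodies and distal elements of expressed genes, whereas H3K27me3 and H3K9me3 mark silenced chromatin. In bone, osteoblasts secrete a collagen matrix and then mineralise it, which calls on phosphate-releasing ectoenzymes, amino acid and citrate transport, matrix proteases and cell-to-cell contacts, the fields in which the products of these genes work elsewhere in the body.

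The promoters and 5hmC regions of these genes are shown here because 5hmC forms at CG dinucleotides. In the RefSeq sequences for GRCm38.p6 (mm10), which cover 250 bases before to 50 bases after a start site, 7 of the 10 genes had 9 entries, and A2m, Slc36a2 and Col22a1 were not among them. Their CG content spread widely. Col13a1 had 29 CG, more than 87.1% of all 32851 promoters, and the second start site of Rhbdl2 had 2, more than 14.1%. Entpd3 had 15, Crygn 18, Prss35 12, Slc13a5 17 and 25 at 2 start sites, Cdh15 7 and the first start site of Rhbdl2 6, while the median of all promoters was 7 with quartiles of 3 and 20. No CG class was common to the genes. The 4 promoters below hold 15, 29, 6 and 7 CG and are written 5′ to 3′ along the gene with CG in capitals.
Entpd3 promoter, chr9:120539568-120539867, plus strand: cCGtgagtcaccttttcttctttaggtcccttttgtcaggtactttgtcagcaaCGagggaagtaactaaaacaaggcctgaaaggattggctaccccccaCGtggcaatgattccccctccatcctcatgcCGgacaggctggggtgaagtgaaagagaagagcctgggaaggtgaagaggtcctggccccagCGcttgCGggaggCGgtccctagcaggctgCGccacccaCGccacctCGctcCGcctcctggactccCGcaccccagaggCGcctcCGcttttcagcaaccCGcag
Col13a1 promoter, chr10:61979059-61979358, minus strand: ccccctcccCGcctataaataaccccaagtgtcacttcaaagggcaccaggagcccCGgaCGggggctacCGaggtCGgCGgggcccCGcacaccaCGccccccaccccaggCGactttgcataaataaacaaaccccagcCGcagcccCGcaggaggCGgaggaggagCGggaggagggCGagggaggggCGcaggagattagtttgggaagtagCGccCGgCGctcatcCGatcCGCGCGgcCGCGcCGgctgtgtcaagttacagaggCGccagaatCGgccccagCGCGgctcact
Rhbdl2 promoter, chr4:123787625-123787924, plus strand: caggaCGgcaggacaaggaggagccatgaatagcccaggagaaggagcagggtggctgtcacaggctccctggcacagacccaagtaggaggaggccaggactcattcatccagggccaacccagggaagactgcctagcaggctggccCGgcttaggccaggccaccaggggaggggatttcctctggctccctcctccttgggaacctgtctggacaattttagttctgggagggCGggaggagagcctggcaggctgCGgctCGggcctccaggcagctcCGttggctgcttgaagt
Cdh15 promoter, chr8:122848124-122848423, plus strand: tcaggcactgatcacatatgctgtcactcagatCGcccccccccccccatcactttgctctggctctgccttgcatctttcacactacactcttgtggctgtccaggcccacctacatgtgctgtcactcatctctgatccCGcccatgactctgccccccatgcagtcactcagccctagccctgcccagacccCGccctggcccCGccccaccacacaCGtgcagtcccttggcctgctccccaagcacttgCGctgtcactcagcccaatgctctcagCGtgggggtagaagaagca

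Letters bound by general or bone factors were not shared by all of them either. On both strands, the GC box GGGCGG stood in promoters of 5 of the 7 genes (Prss35, Rhbdl2, Slc13a5, Cdh15 and Crygn) and in 35.7% of all promoters. The core TGTGGT of RUNX factors stood only in that of Cdh15, at position -38 from the start site on the minus strand, and in 16.8% of all. TATAAA stood only in that of Col13a1, far upstream at -237 (13.6% of all), and the homeobox letters TAATTA (5.29%) and the E-box CAGCTG (16.3%) in none of the 7. These matches only describe the letters of the windows.

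At 5 of the 10 genes the covered length of 5hmC regions was lower by 1.5-fold or more in VitC+/- than in VitC+ femur, as given with the peak values further on. For each of them, the VitC+ peak nearest to the start site that no VitC+/- peak overlapped is shown as the 151 bases around its summit, again 5′ to 3′ along the gene with CG in capitals, from the mm10 sequence. All but 1 of these peaks lay upstream of the gene. The peak of Entpd3 was in an intron at 636 bp from the start site, and those of Slc13a5, Prss35, Col13a1 and Rhbdl2 were at -407, -1545, -1813 and -5630 bp.
Entpd3, chr9:120540379-120540529, plus strand: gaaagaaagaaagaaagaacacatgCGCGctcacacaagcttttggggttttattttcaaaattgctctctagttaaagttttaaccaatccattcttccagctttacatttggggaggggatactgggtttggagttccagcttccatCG
Slc13a5, chr11:72267627-72267777, minus strand: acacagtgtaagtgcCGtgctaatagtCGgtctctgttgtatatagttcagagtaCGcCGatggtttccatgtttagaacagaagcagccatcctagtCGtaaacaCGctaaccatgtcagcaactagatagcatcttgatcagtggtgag
Prss35, chr9:86741620-86741770, plus strand: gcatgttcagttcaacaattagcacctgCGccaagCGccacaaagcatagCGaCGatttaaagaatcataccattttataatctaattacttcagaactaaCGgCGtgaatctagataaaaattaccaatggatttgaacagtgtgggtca
Col13a1, chr10:61980944-61981094, minus strand: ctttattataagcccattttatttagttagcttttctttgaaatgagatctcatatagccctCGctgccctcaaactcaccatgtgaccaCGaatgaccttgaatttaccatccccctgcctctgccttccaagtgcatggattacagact
Rhbdl2, chr4:123782170-123782320, plus strand: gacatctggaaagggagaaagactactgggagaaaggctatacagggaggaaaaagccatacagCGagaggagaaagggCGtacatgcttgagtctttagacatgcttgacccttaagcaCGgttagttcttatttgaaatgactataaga

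These windows held 2 to 6 CG each, the most in Prss35 and Slc13a5 (6 each) and the fewest in Col13a1 (2). In the second experiment, the regions of Entpd3, Prss35 and Slc13a5 were also peaks in Ctrl femur, and those of Entpd3 and Slc13a5 in Tet1/2 cKO femur. The Entpd3 region was in addition a peak in VitC+ and not in VitC- MC3T3-E1 cells. No 5hmC list of the second experiment or of the cells had a peak at the Rhbdl2 or Col13a1 regions.

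All 10 genes were lowest on average in VitC+/- femur, intermediate in WT and highest in VitC+. Levels are scaled RPKM, the deposited read density per kilobase of gene and library depth after division by 1 factor per library, and so can be compared between genes. In VitC+ femur the highest was Slc13a5 with 47.3 ± 26.9 (SD, n = 3), followed by Slc36a2 with 40.6 ± 14.4 and Col22a1 with 38.02 ± 10.8, neighbours that did not differ beyond their spread. Entpd3 (33.6 ± 10.1), Prss35 (25.6 ± 6.31), Col13a1 (20.9 ± 9.34) and A2m (20.5 ± 11.2) came next, then Cdh15 (11.1 ± 3.38) and Rhbdl2 (9.61 ± 2.54), and Crygn was near the detection minimum with 1.55 ± 0.594. Beside them Col1a2, which encodes a chain of type I collagen, stood at 3241 ± 1043, far above all 10 genes.

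**Figure D1:**
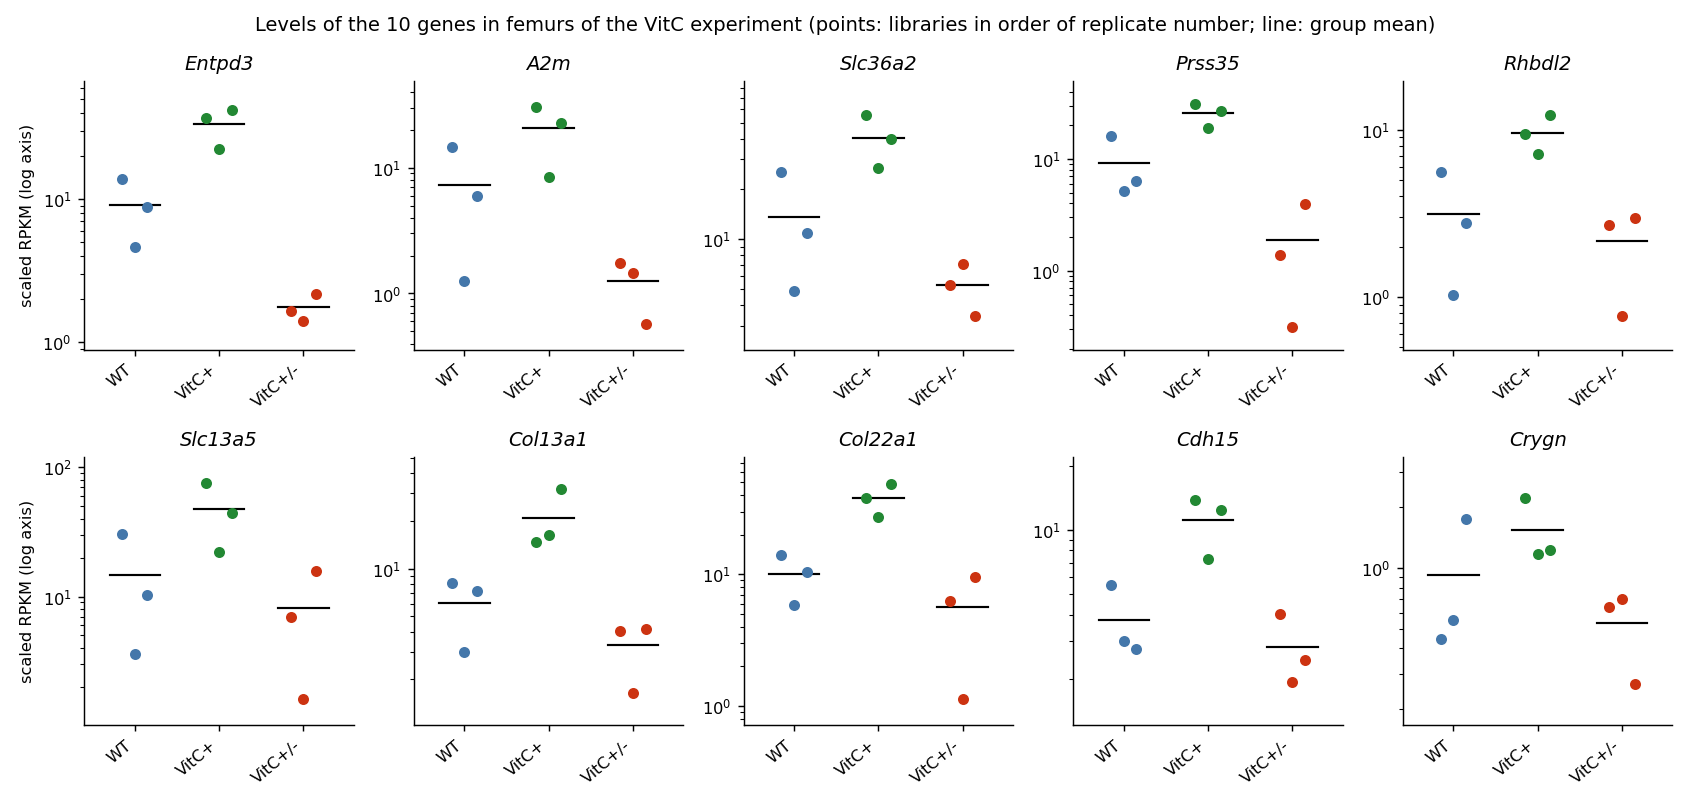
Scaled RPKM (log axis) of each of the 10 genes in the 3 WT, 3 VitC+ and 3 VitC+/- femur libraries, 1 point per library with a bar at the group mean. The VitC+/- points lie below all VitC+ points for every gene, and the WT points overlap the VitC+/- points for all genes but Entpd3 and Prss35.

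Entpd3 encodes a membrane ectonucleotidase that splits extracellular ATP and related nucleotides. Its scaled RPKM was 37.0, 22.3 and 41.7 in VitC+, 1.64, 1.41 and 2.19 in VitC+/- and 13.9, 4.62 and 8.83 in WT. The 3 groups did not overlap at all, and the VitC+/- libraries were close together. The log2 fold change of VitC+/- against VitC+ was -3.89 (SE 0.36), the lowest of the 10.

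Slc13a5 encodes a sodium-coupled carrier that takes up citrate, which is abundant in bone mineral. Its scaled RPKM was 75.6, 22.1 and 44.3 in VitC+, 6.91, 1.61 and 15.8 in VitC+/- and 30.4, 3.61 and 10.3 in WT. VitC+/- and VitC+ did not overlap, but each group spread over a wide range, and WT overlapped both. The log2 fold change of VitC+/- against VitC+ was -2.75 with the largest standard error of the 10, 0.86. Slc36a2 encodes a proton-coupled carrier of small amino acids such as glycine and proline, the main residues of collagen. It stood at 55.4, 26.7 and 39.7 in VitC+, 5.27, 7.11 and 3.47 in VitC+/- and 25.1, 4.89 and 10.9 in WT. Here too WT 2 lay among the VitC+/- libraries. The log2 fold change was -2.82 (SE 0.51).

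Prss35 encodes a secreted member of the trypsin-like serine protease family. It stood at 31.2, 18.8 and 26.9 in VitC+, 1.37, 0.313 and 3.92 in VitC+/- and 16.0, 5.22 and 6.30 in WT. Like Entpd3, its 3 groups were fully apart, with a log2 fold change of VitC+/- against VitC+ of -3.76 (SE 0.58). A2m encodes alpha-2-macroglobulin, a secreted inhibitor that traps proteases of many classes. It stood at 30.5, 8.38 and 22.5 in VitC+, 1.73, 1.45 and 0.571 in VitC+/- and 14.5, 1.26 and 6.01 in WT, where WT 2 lay within the VitC+/- range and WT 1 within the VitC+ range. The log2 fold change was -3.47 (SE 0.73). Rhbdl2 encodes a rhomboid protease, which cuts membrane proteins within the membrane. It stood at 9.43, 7.16 and 12.2 in VitC+, 2.70, 0.773 and 2.98 in VitC+/- and 5.55, 1.03 and 2.77 in WT. WT and VitC+/- overlapped while both lay below VitC+, and the log2 fold change of VitC+/- against VitC+ was -2.03 (SE 0.52).

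Col13a1 encodes a transmembrane collagen of cell-to-matrix contacts and of the neuromuscular junction. It stood at 14.8, 16.4 and 31.7 in VitC+, 4.06, 1.64 and 4.17 in VitC+/- and 8.16, 2.97 and 7.20 in WT, and its log2 fold change was -2.50 (SE 0.44). Col22a1 encodes a collagen of tissue junctions, known from the myotendinous junction. It stood at 37.9, 27.3 and 48.9 in VitC+, 6.22, 1.14 and 9.63 in VitC+/- and 14.01, 5.88 and 10.4 in WT, and its log2 fold change was -2.96 (SE 0.60). For both collagens the VitC+ libraries lay above all others, and WT 2 lay within the range of VitC+/-.

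Cdh15 encodes M-cadherin, a calcium-dependent adhesion protein best known from muscle precursor cells. It stood at 13.8, 7.31 and 12.3 in VitC+, 4.03, 1.93 and 2.46 in VitC+/- and 5.51, 2.995 and 2.76 in WT. WT and VitC+/- overlapped, both lay below VitC+, and the log2 fold change of VitC+/- against VitC+ was -1.82 (SE 0.33). Crygn encodes gamma-N-crystallin, of a family known as structural proteins of the lens. Its level was low throughout, at 2.23, 1.17 and 1.24 in VitC+, 0.645, 0.703 and 0.266 in VitC+/- and 0.448, 0.552 and 1.76 in WT. It reached the minimum of 1 RPKM in 4 of 9 libraries, and its log2 fold change of -0.97 (SE 0.37) was the smallest of the 10.

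By the limma fit over all 12586 entries tested, with Benjamini-Hochberg adjustment at 0.05, 8 of the 10 genes were called lower in VitC+/- than in VitC+, against a background of 7.52% of entries; Slc13a5 and Crygn were not. Without VitC+ 3, 5 were called, beside 336 lower of 12468 entries. For all 10 the VitC+/- and VitC+ libraries did not overlap, which held for 19.1% of entries. Since that contrast chose the genes, nothing is read from these counts. The median log2 fold change was -2.78 over the 10 genes and 0.02 over all entries.

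WT mice make their own VitC, and against them the differences were smaller. The median log2 fold change of VitC+/- against WT was -0.93, from -2.19 in Prss35 and -1.99 in Entpd3 over -1.73 in A2m, -1.06 in Slc36a2 and Col22a1, -0.81 in Slc13a5 and -0.78 in Col13a1 to -0.37 in Rhbdl2 and Crygn and -0.36 in Cdh15. Of the 10 genes, 2 (Entpd3 and Prss35) were called lower and were also those whose libraries did not overlap, where 15.9% of all entries were called lower and 21.3% did not overlap. These libraries of VitC+/- are those of the contrast that chose the genes, so the counts are a description. Rhbdl2 was at 0.11 without WT 1 and at 0.098 without VitC+/- 2, and Crygn at 0.028 without WT 3. The number called was 1 without WT 1 (2042 of 12521 entries lower) or VitC+/- 1 (1262 of 12431) and 4 without WT 2 (1936 of 12533).

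WT was also below VitC+ for all 10 genes, with a median log2 fold change of -1.73 and a range from -1.94 (Slc13a5) to -0.60 (Crygn). In 7 of them (all but A2m, Slc13a5 and Crygn) the libraries did not overlap, which held for 14.5% of entries. The VitC+ libraries are those of the contrast that chose the genes, so nothing is read from this count either. None was called, nor was any of the 12586 entries (0%), although 2769 entries had an unadjusted limma p under 0.05. The spread of WT rests partly on WT 1, the shallowest library, at an estimated 7.57 M reads (31.1 to 47.3 M in the others). Without it, the median of WT against VitC+ was -2.16 with 4 genes called, beside 531 lower of 12521 entries. That of VitC+/- against WT was then -0.57 with 1 called, beside 2042 lower of 12521 entries.

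**Figure D2:**
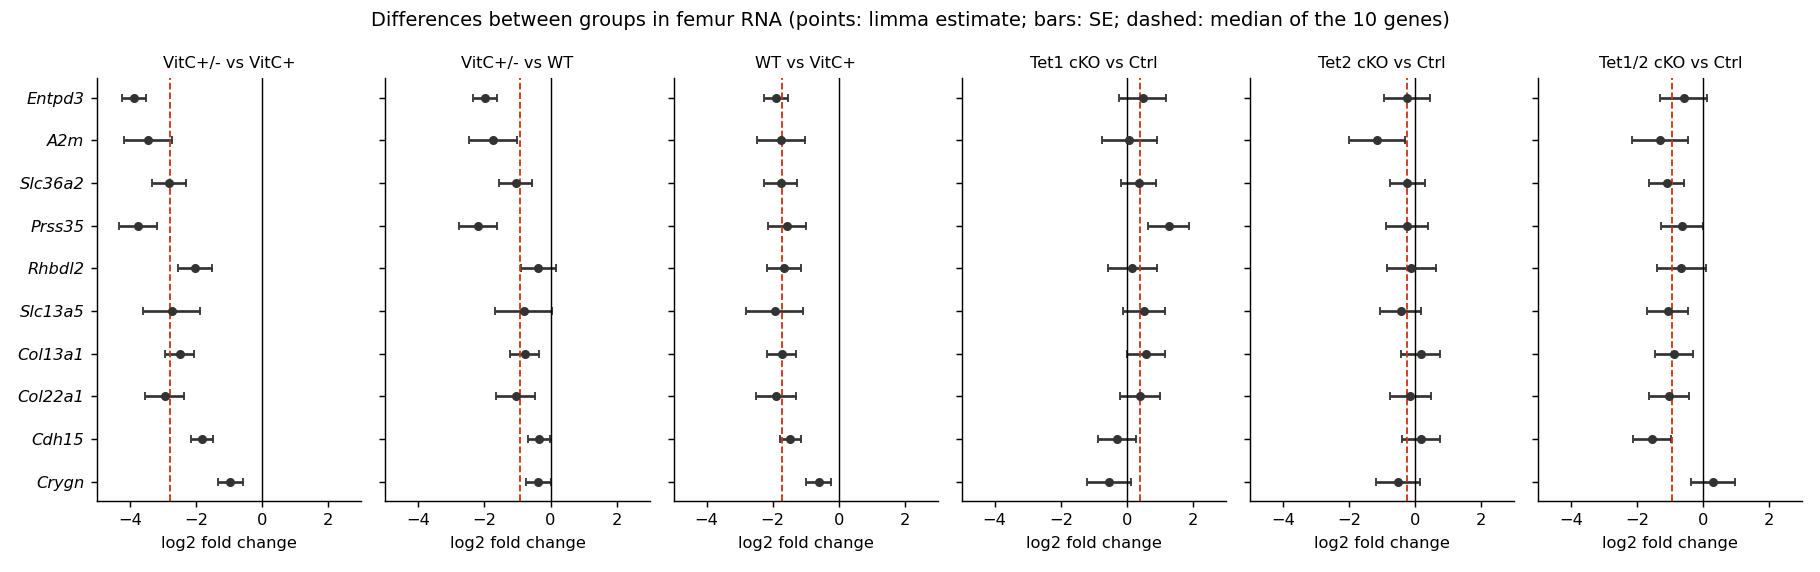
Log2 fold change with its standard error for each of the 10 genes in the 3 VitC comparisons (scaled RPKM) and the 3 Tet comparisons (normalized counts), with the median of the 10 genes as a dashed line. VitC+/- against VitC+ runs from -3.89 to -0.97, and Tet1/2 cKO against Ctrl from -1.56 to 0.28.

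Markers of several cell types also differed in level between the groups. The summed level of 18 osteoblast and osteocyte markers was 7102 to 12360 scaled RPKM in VitC+, 2993 to 8635 in VitC+/- and 1415 to 4590 in WT. Abundant genes such as Col1a2 weigh heavily in this sum. Of the 18, 10 fell and 1 rose in VitC+/- against VitC+ (limma, adjusted p under 0.05), with a median log2 fold change of -1.94. The 1 that rose was Spp1, which encodes osteopontin and is also made by osteoclasts (log2 fold change 1.28, SE 0.28, adjusted p = 0.0192), and Col1a1 and Col1a2 did not pass at -2.32 (SE 0.78, adjusted p = 0.0770) and -2.40 (SE 0.74, adjusted p = 0.0601). Part of this list belongs to the study's own bone-selective genes. Its place in the lower level of the 10 genes was not tested. In sum the 18 markers were lowest in WT, but gene by gene 10 of them were below 0 in VitC+/- against WT, with a median log2 fold change of -0.21.

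Muscle transcripts bear on Cdh15, Col13a1 and Col22a1, which muscle also expresses. The summed level of 16 skeletal muscle markers ran from 11.1 scaled RPKM in WT 2 to 1989 in VitC+ 2, and reached 750 in VitC+/- 1, so it followed single libraries and not groups. VitC+ 2, the library richest in muscle RNA, had the lowest level of its group in 9 of the 10 genes (all but Col13a1), Cdh15 and Col22a1 included. Of 15 muscle markers tested none was called in VitC+/- against VitC+ (median -1.31, limma), and of the 5 muscle satellite cell markers only Des and Megf10 reached the minimum level, with no call. Adipocyte markers were highest in VitC+/- 2, at 3264 in sum against 388 and 421 in the other VitC+/- libraries, and 1 of 10 was called higher. VitC+/- 2 had the lowest level of 7 of the 10 genes within its group. Without it, the median log2 fold change of VitC+/- against VitC+ was -2.16 with 7 genes called (777 of 12454 entries lower), and against WT -0.45.

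Other cell types in the marrow remnant also differed between VitC+/- and VitC+. Of the B-cell precursor markers, 6 of 7 tested were lower (median -3.12), of the neutrophil markers 1 of 8 was lower (-1.09), and of the erythroid markers 2 of 6 were higher (0.71). Of the osteoclast markers, 2 of 8 were higher (0.71), of the chondrocyte markers 1 of 5 was lower (-1.05), and of the tendon fibroblast markers 1 of 5 was lower (-0.29). Against WT, 8 of 8 neutrophil markers (median -1.98), 6 of 7 B-cell precursor markers (-3.12) and 1 of 5 chondrocyte markers were lower in VitC+/-. Higher were 8 of 10 adipocyte (2.74), 6 of 8 osteoclast (2.14), 2 of 5 tendon fibroblast, 2 of 6 erythroid and 1 of 2 satellite cell markers. Of the 18 osteoblast and osteocyte markers, 3 were lower and 2 higher. Whether any of these shares set the level of the 10 genes was not tested.

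Few of the genes listed beside the 10 genes, as family members or as partners in function, were lower in VitC+/- femur. These 10 lists, called family lists here, held 61 further genes that were tested. Against VitC+, 2 of them were called lower (3.28%) and 5 higher (8.20%) in VitC+/-, against 7.52% and 5.93% of all entries. Against WT, 1 was lower (1.64%) and 28 were higher (45.9%), against 15.9% and 15.3% of all entries. In WT against VitC+ and in the Tet comparisons none of them was called by limma. With the RPKM as deposited, without the factor per library, the calls were 0 lower and 5 higher against VitC+ and 1 lower and 24 higher against WT, and no called gene changed its sign. Cell type markers also differed against WT, as given above, and their part in the family counts was not tested.

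Among the partners of Entpd3 in extracellular nucleotide breakdown, none of 9 was called in VitC+/- against VitC+, and Enpp2 and Nt5e rose against WT (log2 fold change 2.20, SE 0.37, adjusted p = 0.00311, and 1.87, SE 0.51, adjusted p = 0.0225). Enpp2 makes the lipid mediator lysophosphatidic acid and Nt5e turns AMP into adenosine. Of the amino acid carriers beside Slc36a2, 4 of 8 rose in VitC+/- against VitC+: Slc1a4 by 1.65, the glycine carrier Slc6a9 by 1.6, the large neutral amino acid carrier Slc7a5 by 1.14 and Slc38a2 by 0.58 on the log2 scale. Slc6a9 stood at 16.5 ± 3.08 in VitC+/-, 5.26 ± 1.73 in VitC+ and 4.35 ± 0.263 in WT, highest in the group in which Slc36a2 was lowest. Of the genes of citrate handling beside Slc13a5, none of 8 was called against VitC+ and 5 rose against WT, with Ank, which exports citrate and pyrophosphate, at 1.41 and the zinc carrier Slc39a1 at 1.1.

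Of 6 serine proteases beside Prss35, none was called against VitC+, and Plat, Htra3 and Prss23 rose against WT by 2.45, 2.25 and 2.14. Of the family and receptors of A2m, Lrp1, the receptor that clears alpha-2-macroglobulin complexes, rose by 1.43 against VitC+ (SE 0.23, adjusted p = 0.00689) and by 2.08 against WT, and Cd109 rose against WT by 1.95. Of 8 rhomboid genes beside Rhbdl2, none was called against VitC+ and Rhbdf1 rose against WT by 2.1. Neither Col23a1 nor Col25a1, the transmembrane collagens beside Col13a1, was called against VitC+, and both rose against WT (1.39 and 1.02). Of the 5 collagens of the class of Col22a1, the cartilage gene Col9a2 fell by 2.81 against VitC+, and Col12a1 (3.04) and Col20a1 (0.96) rose against WT. Of the cadherins and catenins beside Cdh15, none of 7 was called against VitC+, and Cdh13, the osteoblast cadherin Cdh11, the endothelial Cdh5 and Ctnnd1 rose against WT by 1.75, 1.68, 1.35 and 1.02. Of 6 crystallin-related genes, Cryzl1 fell by 0.66 against VitC+ and by 0.80 against WT, and Crybg3 rose by 0.66 against WT.

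The Tet knockouts tested the same genes in animals that the choice did not use. Values there are normalized counts, which are not per length, so they are compared within a gene only. None of the 10 genes passed limma's adjusted p of 0.05 in any of the 3 comparisons with Ctrl. In Tet1 cKO and Tet2 cKO, 0.00596% of the 16780 genes tested were called in each direction, and in Tet1/2 cKO 0%, with 382, 368 and 847 genes at an unadjusted p under 0.05. edgeR called 0, 1 and 0 genes and DESeq2 13, 14 and 13 on the recovered reads, none of the 10 among them.

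**Figure D3:**
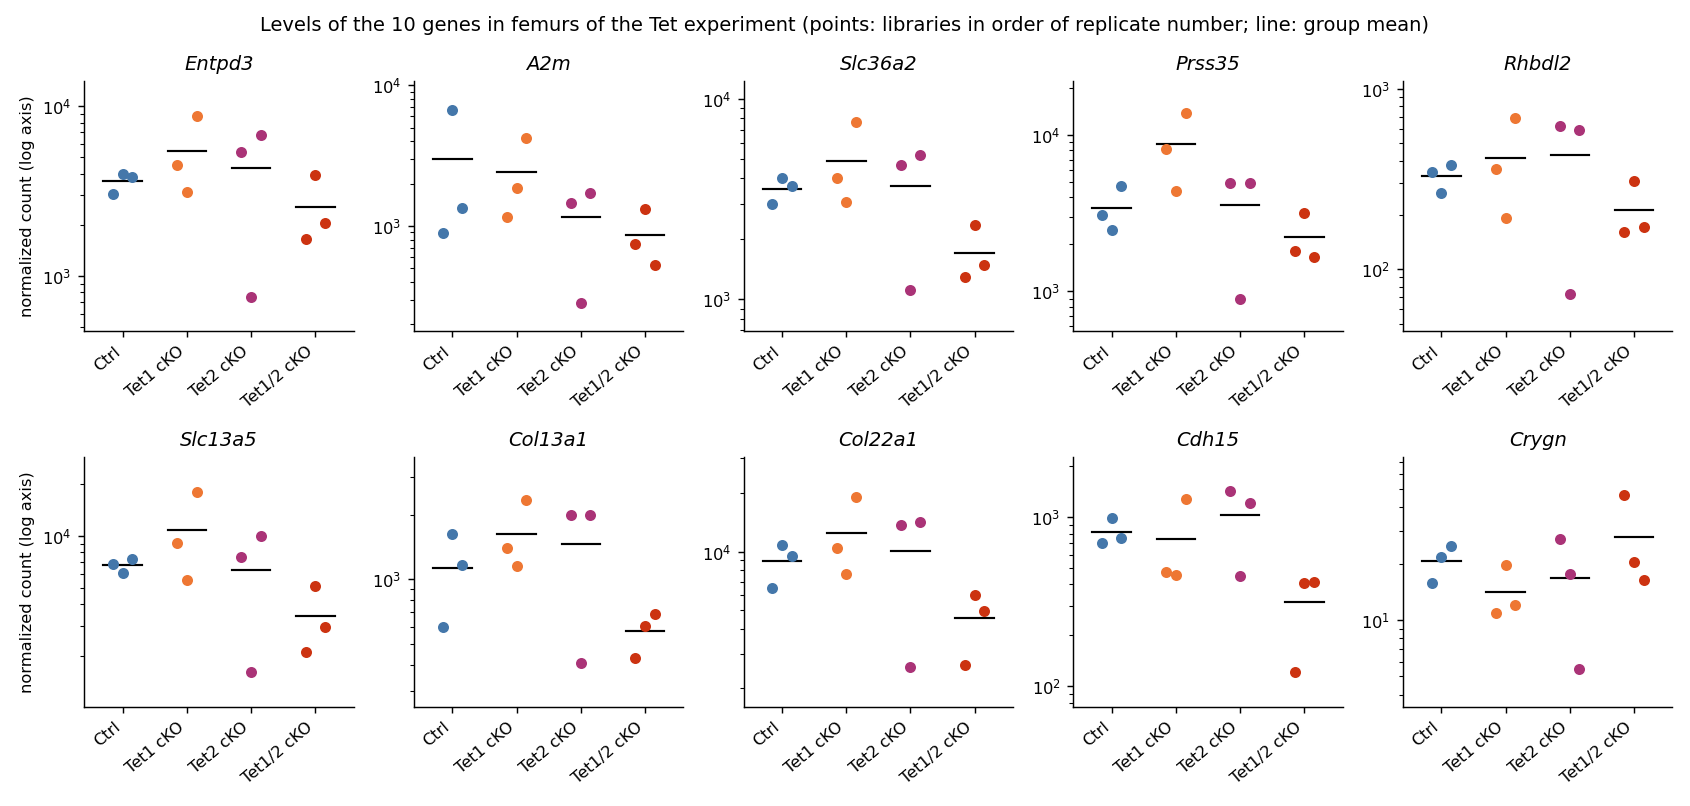
Normalized counts (log axis) of each of the 10 genes in the femur libraries of the 4 Tet groups, 3 each, 1 point per library with a bar at the group mean. Tet2 cKO 2 is the lowest of the 12 libraries for 8 genes and Tet1 cKO 3 the highest for 7, and the Tet1/2 cKO points of Slc36a2, Slc13a5, Col22a1 and Cdh15 lie below all Ctrl points.

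In Tet1/2 cKO, 9 of the 10 genes had a log2 fold change below 0, as did 50.8% of all genes. The median was -0.96 over the 10 genes and -0.01 over all genes. Most of the 10 ran in parallel across libraries, as given further on, so they are not independent observations. The libraries of 4 genes (Slc36a2, Slc13a5, Col22a1 and Cdh15) did not overlap those of Ctrl and were lower, where 10.0% of genes did so, and none was higher without overlap, where 7.37% were. A fold change of 2 or more to the lower side was reached by 5 genes (these 4 and A2m), where 10.9% of genes did so.

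Cdh15 had the lowest ratio. Its normalized counts were 702, 993 and 753 in Ctrl and 121, 410 and 412 in Tet1/2 cKO. Every Tet1/2 cKO library lay below every Ctrl library, at a log2 fold change of -1.56 (SE 0.58, adjusted p = 0.723 by limma). In this fit over 12 libraries Cdh15 was the only 1 of the 10 genes with an unadjusted p under 0.05 in a Tet comparison. In fits to the 2 groups compared alone, Slc36a2, Slc13a5, Col22a1 and Col13a1 were so too in Tet1/2 cKO (limma, adjusted p = 0.461 for each, as for Cdh15) and Prss35 in Tet1 cKO (adjusted p = 0.995). Over all genes, 1709 of 15970 had an unadjusted limma p under 0.05 in this Tet1/2 cKO fit. In this Tet1 cKO fit 460 of 16102 did.

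Slc36a2 had normalized counts of 3001, 4006 and 3675 in Ctrl and 1285, 2338 and 1481 in Tet1/2 cKO. Slc13a5 had 6809, 6053 and 7325 in Ctrl and 2121, 5132 and 2948 in Tet1/2 cKO. Col22a1 had 6502, 10797 and 9474 in Ctrl and 2611, 6025 and 4990 in Tet1/2 cKO. In all 3 genes Tet1/2 cKO 2 was the highest of its group and still below Ctrl. Their log2 fold changes were -1.10 (SE 0.53), -1.08 (SE 0.62) and -1.03 (SE 0.61), each with an adjusted p of 0.723 by limma.

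A2m differed among the Ctrl libraries themselves, with normalized counts of 887, 6694 and 1341 against 747, 1322 and 530 in Tet1/2 cKO. The groups overlapped, and Ctrl 2 was the highest of the 12 libraries. Its log2 fold change was -1.31 (SE 0.84, adjusted p = 0.723). Entpd3 and Prss35, the lowest of the 10 genes in VitC+/- against VitC+, overlapped between Tet1/2 cKO and Ctrl. Entpd3 had 3041, 3981 and 3814 in Ctrl and 1645, 3917 and 2064 in Tet1/2 cKO, and Prss35 had 3104, 2490 and 4741 in Ctrl and 1819, 3194 and 1658 in Tet1/2 cKO. Their log2 fold changes were -0.60 (SE 0.71, adjusted p = 0.792) and -0.64 (SE 0.63, adjusted p = 0.761). Col13a1 and Rhbdl2 were at -0.88 (SE 0.58, adjusted p = 0.723) and -0.67 (SE 0.74, adjusted p = 0.780), and Crygn, at 15.9 to 24.7 normalized counts in Ctrl and 16.3 to 46.5 in Tet1/2 cKO, at 0.28 (SE 0.66, adjusted p = 0.899).

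With loss of a single TET gene, the direction turned on single libraries. In Tet1 cKO, 8 of the 10 genes were above 0, with a median of 0.38, while 51.1% of all genes were below 0. Prss35 was farthest from Ctrl, with 8230, 4406 and 13928 normalized counts and a log2 fold change of 1.26 (SE 0.63, adjusted p = 1.00 by limma). Tet1 cKO 3 was the highest library of the 12 for 7 of the genes, and without it the median was 0.01 with 5 genes above and 5 below 0. In Tet2 cKO, 8 of the 10 genes and 51.7% of all genes were below 0. The median of the 10 was -0.24, from -1.16 in A2m to 0.18 in Cdh15. Tet2 cKO 2 decided the sign of this median, as without that library it was 0.62 with 8 genes above 0, and none was called. No gene had libraries apart from Ctrl in Tet1 cKO or Tet2 cKO, against 3.54% and 3.43% of genes to the lower side and 4.28% and 2.54% to the higher.

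The sum of the osteoblast and osteocyte markers, in which abundant genes weigh most, moved with the same libraries. Their summed normalized counts were 1087026 to 1386728 in Ctrl and 349656 to 756451 in Tet1/2 cKO, 3982816 in Tet1 cKO 3 and 329145 in Tet2 cKO 2. The median log2 fold change of the 18 markers was 0.49 in Tet1 cKO, -0.13 in Tet2 cKO and -1.01 in Tet1/2 cKO, with none called by limma, beside 0.38, -0.24 and -0.96 for the 10 genes. Muscle markers summed to 167284 to 711554 in Ctrl, and to 9439, 5231 and 617670 in Tet1/2 cKO. The median log2 fold changes in Tet1/2 cKO were -3.72 for 16 muscle, -2.16 for 5 satellite cell, -3.54 for 7 chondrocyte, -1.18 for 7 tendon fibroblast, -0.92 for 8 osteoclast, -0.82 for 12 adipocyte and -0.28 for 8 B-cell precursor markers, but 0.64 for 8 neutrophil and 0.49 for 7 erythroid markers, again with none called. Cdh15 was at 121 and 410 in Tet1/2 cKO 1 and 2, which had little muscle RNA, and at 412 in Tet1/2 cKO 3, whose muscle RNA was in the range of Ctrl. The part of cell composition in the levels of the 10 genes was not tested.

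Levels of the genes ran in parallel across libraries. Over the 36 pairs without Crygn, Pearson's r of log2 values was 0.778 to 0.980 (median 0.890) over the 9 VitC libraries and 0.531 to 0.979 (median 0.855) over the 12 Tet libraries. Crygn stood apart, with 0.440 to 0.697 in the former and -0.521 to -0.147 in the latter. These values are a description, since the libraries share groups, cell composition and scaling, and the genes were chosen for 1 of the differences among them. Among 11193 genes measured in both experiments, the gene most like Slc13a5 was Col1a2, with r of 0.971 and 0.981. Entpd3 was most like Col24a1, a fibrillar collagen gene (0.997 and 0.970), Prss35 like Col11a1 (0.963 and 0.965), Col22a1 like the chloride channel gene Ano1 (0.977 and 0.980) and Slc36a2 like Kazald1 (0.956 and 0.978). Rhbdl2 was most like the protease gene Pcsk6 (0.976 and 0.944), Col13a1 like Zbtb7c (0.967 and 0.973), Cdh15 like the kinase gene Dapk2 (0.923 and 0.949), A2m like Pyroxd2 (0.8997 and 0.864) and Crygn like Slc35d2 (0.802 and 0.750). The mean profile of the 10 genes was most like Rhpn2, Pcsk6, Col24a1, Zbtb7c and the osteoblast gene Ifitm5, with a smaller r of 0.959 to 0.968.

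At the genome, the 5hmC regions of the 10 loci, each a gene with 30 kb on either side in mm10, were fewer and shorter in VitC+/- than in VitC+ femur. Each list was called on 1 pooled set of reads per group, so there is no replicate error and no test. The loci held 274 peaks over 122.8 kb in VitC+ and 191 peaks over 78.6 kb in VitC+/-. Of the 274 VitC+ peaks, 107 (39.1%) had no overlapping VitC+/- peak, where 22.2% of all VitC+ peaks had none. In the other direction, 23 of the 191 VitC+/- peaks (12.04%) had no VitC+ peak, where 26.3% of all had none.

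The covered length, with 1000 bp added to both sides of the ratio, was lower by 1.5-fold or more at 5 of the 10 loci, against 7.50% of 22229 genes, and higher at none, against 11.1%. At Entpd3 (chr9:120539818-120568326, plus strand) it was 4.24 kb in 12 peaks in VitC+/- and 10.2 kb in 26 peaks in VitC+, a ratio of 0.467. At Prss35 (chr9:86743633-86757506, plus strand) it was 9.09 kb in 22 peaks against 18.9 kb in 31, a ratio of 0.507.

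Rhbdl2 (chr4:123787875-123829904, plus strand) had 5.43 kb in 16 peaks against 9.83 kb in 26, a ratio of 0.594. Col13a1 (chr10:61838498-61979108, minus strand) had 6.81 kb in 19 peaks against 11.8 kb in 30, a ratio of 0.612. Slc13a5 (chr11:72241994-72266604, minus strand) had 9.61 kb in 18 peaks against 15.5 kb in 29, a ratio of 0.644. These 3 loci lay just inside the limit, and Col22a1 (chr15:71798476-72034227, minus strand) just outside it with 26.6 kb in 63 peaks against 39.9 kb in 91, a ratio of 0.676. Within 30 kb of the start site alone, Col22a1 had more in VitC+/-, with 4 peaks against 3 and a ratio of 1.41. The RefSeq start site of Col22a1, at 72150979, lies upstream of the locus given in the files and outside this window.

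At the remaining loci the lists differed little or the other way. The ratio was 0.836 at Cdh15 (chr8:122848374-122867397, plus strand), 0.859 at Slc36a2 (chr11:55158468-55185077, minus strand) and 0.959 at Crygn (chr5:24751002-24757843, minus strand), which had 1 peak in each list. At A2m (chr6:121636173-121679238, plus strand) the covered length was higher in VitC+/-, with 7.32 kb in 18 peaks against 5.36 kb in 13, a ratio of 1.31, although its RNA was 1 of the 3 lowest in ratio. The median ratio was 0.660 over the 10 loci and 0.927 over all genes.

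**Figure D4:**
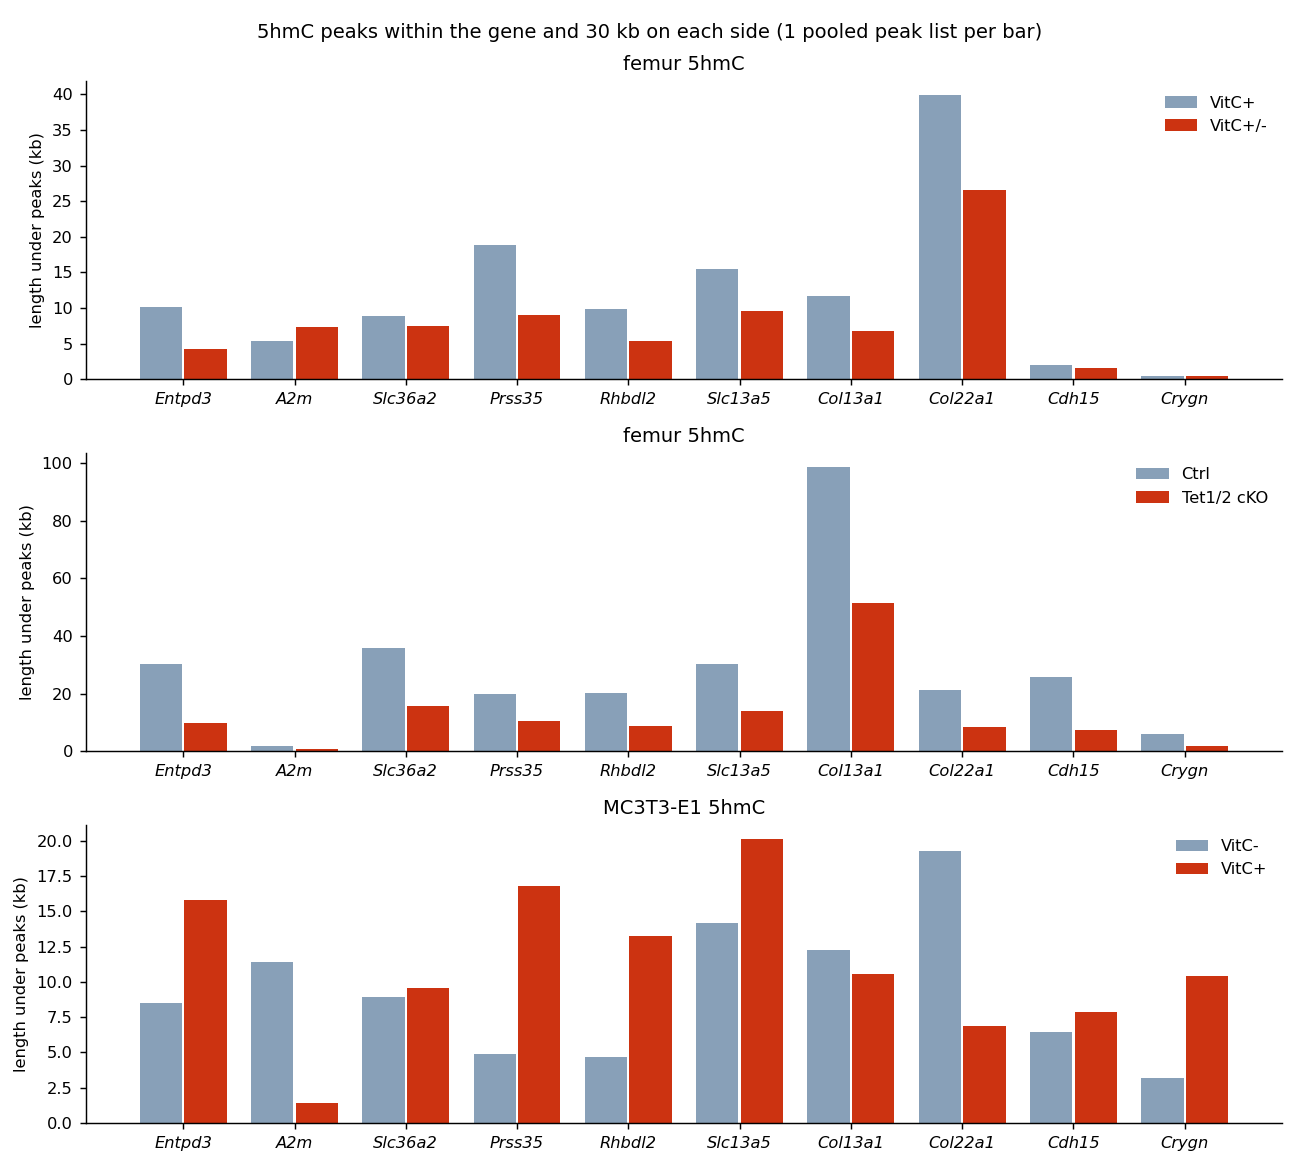
Covered length of 5hmC peaks (kb) at each of the 10 loci in VitC+ and VitC+/- femur (top), in Ctrl and Tet1/2 cKO femur (middle) and in VitC- and VitC+ MC3T3-E1 cells (bottom), 1 pooled list per bar and no error. Of the 10 loci, 9 had less in VitC+/- than in VitC+ (the exception is A2m), all had less in Tet1/2 cKO than in Ctrl, and in the cells A2m, Col13a1 and Col22a1 had more without VitC.

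**Figure D5:**
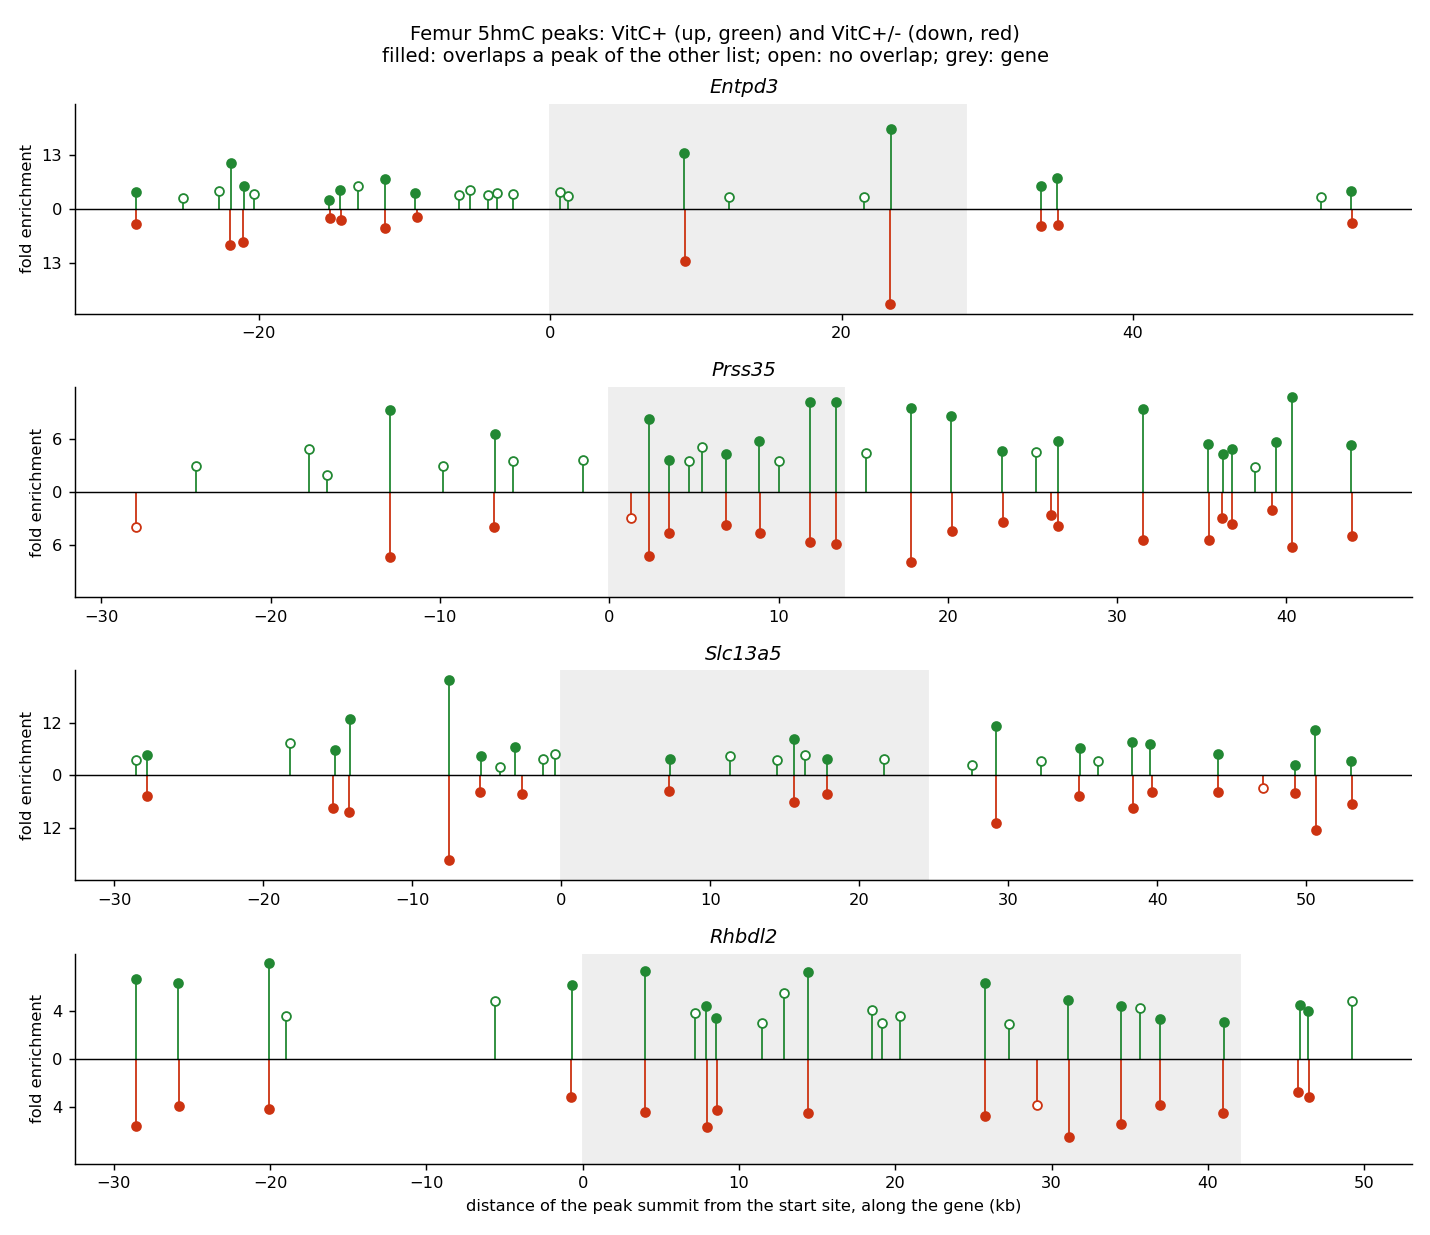
5hmC peaks around Entpd3, Prss35, Slc13a5 and Rhbdl2 by distance from the start site (kb), VitC+ peaks drawn upward and VitC+/- peaks downward with the fold enrichment as height. Filled points overlap a peak of the other list, open points do not, and the gene is grey. Open points are mostly VitC+ peaks, such as the Entpd3 peak at 0.636 kb and the Slc13a5 peak at -0.407 kb.

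Near the start sites the pattern differed by gene. Within 1 kb, Entpd3 and Slc13a5 had the VitC+ peaks shown above, with fold enrichments of 3.89 and 5.01, and no VitC+/- peak overlapping them. Rhbdl2 had a peak at -666 bp in both lists, with a fold enrichment of 6.12 in VitC+ and 3.21 in VitC+/-. Slc36a2 had 1 at -142 bp, with 3.09 in VitC+ and 4.97 in VitC+/-, and A2m 1 at 762 bp in VitC+/- only, with 3.75.

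In Tet1/2 cKO femur, covered length was lower by 1.5-fold or more than in Ctrl at 9 of the 10 loci, and at A2m it was just outside with a ratio of 0.667. It was higher by as much at none, against 0.107% of genes. Since 75.4% of 23289 genes were past that limit, and the median ratio was 0.453 over the loci and 0.489 over all genes, the loci followed the whole list. Cdh15, with 7.44 kb in 11 peaks against 25.8 kb in 27, had the lowest ratio of 0.315, and Entpd3, with 9.81 against 30.3 kb, had 0.346. Of the Ctrl peaks at the loci, 47.8% had no Tet1/2 cKO peak over them, where 53.3% of all had none.

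In MC3T3-E1 cells the loci also followed the whole lists. 5hmC covered length in VitC+ against VitC- cells was higher by 1.5-fold or more at 4 loci (Prss35 3.02, Crygn 2.72, Rhbdl2 2.53 and Entpd3 1.76), where 47.3% of genes were, and lower at 2 (A2m 0.195 and Col22a1 0.390), where 29.3% were. Entpd3 had 15.8 kb in VitC+ and 8.53 kb in VitC- cells. Its intronic peak was present in VitC+ cells with a fold enrichment of 11.3, at 750 bp from the start site. Entpd3, Prss35 and Rhbdl2 were past the 1.5-fold limit toward more 5hmC with VitC in both femur and cells, and no locus was past it the other way in both. A2m had less 5hmC with VitC in both, though in femur its ratio of 1.31 for VitC+/- against VitC+ was inside the limit. The share of all genes past the limit in both was not computed, so nothing is read from this overlap.

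The repressive marks came from cells whose time in culture is given as 7 days in the peak names and the study's methods, and as 28 days in the labels. The 5hmC lists of the cells are from day 28, so marks and 5hmC may be from different times. H3K27me3 covered length was lower by 1.5-fold or more in VitC+ than in VitC- cells at 5 loci (Crygn 0.408, Rhbdl2 0.452, Entpd3 0.466, Col22a1 0.506 and Col13a1 0.663), where 37.2% of genes were, and higher at none, where 3.0% were. Prss35 had no H3K27me3 peak in either list. H3K27me3 peaks at Col13a1 numbered 43 over 113.3 kb in VitC+ and 16 over 171.4 kb in VitC- cells, so a count of peaks gave the opposite order to covered length there. H3K9me3 was lower at 5 loci (Entpd3 0.173, Crygn 0.240, Slc13a5 0.417, Slc36a2 0.486 and Prss35 0.601), where 30.2% of genes were, and higher at none, where 4.76% were. At Entpd3 there were 3 H3K9me3 peaks over 4.77 kb in VitC- cells and none in VitC+ cells, and Col22a1 had none in either. Many of these histone peaks were weak, with a median -log10 q of 1.61 to 2.23 over the 4 lists. Among peaks with a -log10 q of at least 5 the lower loci numbered 1 for H3K27me3 and 0 for H3K9me3. Of all genes, only 3.08% and 0.593% were lower at that limit.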

How the data were processed

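Femur RNA was measured in 21 libraries. According to the study's methods and the submitters' processing notes, the authors used STAR 2.6.0b-1 for alignment (mm10), counted genes with featureCounts 1.6.3 and normalised with DESeq2 2.11.40.2, and called 5hmC peaks (narrow) and histone peaks (broad) with MACS2 on reads aligned by BWA 0.7.15.1, at a false discovery rate of 0.05. MACS2 is listed as version 2.1.1.20160309.6 in the processing notes, while the study's methods name an earlier version. The lowest -log10 q was 1.3016 to 1.3087 in the 5hmC lists but 1.0052 to 1.0134 in the histone lists, which thus also hold peaks short of that rate. The deposited VitC files hold RPKM per library. The deposited Tet table holds normalised counts, which is a signal equal to a gene's count divided by 1 size factor per library. The deposited peak lists, 1 per group, hold the fold enrichment over local background (a ratio) and the -log10 q-value of each peak, and some also the pileup signal at its summit. No column was left unused for want of a sample (0), and no column of the authors' own comparisons was used.

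RPKM were divided by median-of-ratios factors (0.757 to 1.10), entries with a deposited RPKM of at least 1 in at least 3 of 9 libraries were kept, and log2(value + 0.5) was fitted with limma 3.58.1 in R 4.3.3 (moderated with a trend, all 9 libraries, Benjamini-Hochberg over 12586 entries, threshold 0.05). Tet values needed at least 10 normalised counts in at least 3 of 12 libraries and were fitted as log2(value + 1) over 16780 genes. Fold changes are on these shifted log2 scales and understate changes of low genes. The p-values measure the spread between these animals, 3 per group. All tests are two-sided. Depth was read from the steps of the values. For the VitC files it was estimated as a depth at which most low values came out as whole reads (tolerance 0.05 of a read). Only 1165 to 1703 values per library were used, from genes with 1 annotated transcript. At the chosen depth, 91.9 to 93.0% of these came out whole. In 11 of 12 Tet libraries whole reads were recovered (28.6 to 49.8 M), on which edgeR 4.0.16 and DESeq2 1.42.0 were run as alternatives without Tet1 cKO 3. Peaks within 30 kb of each gene as placed by the annotation were counted, and covered lengths were compared as ratios with 1000 bp added to each side. The fitting steps were tested on simulated data. Tables were handled in Python 3.11.15 (numpy 2.4.6, pandas 2.3.3, matplotlib 3.10.9).

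The 10 genes, the 10 family lists, the 10 cell type marker lists and the tests were chosen with earlier results of these data known. Of each family list up to 4 called genes by size of the fold change were eligible to be named, of each marker list the 3 highest in level, and per gene the 1 most correlated outside the 10. Genes beyond that were named after their values were seen. Alternatives were other scalings, pseudocounts and filters, fits to 2 groups only, the replicate block, count tests, leaving out each library, and other peak limits. Motifs were searched on both strands of RefSeq promoters.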

Additional observations from a re-analysis of the deposited data

How the results depend on the processing

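Of 210 log2 fold changes of the 10 genes in the Tet comparisons under alternatives that leave out no library, 194 kept their sign, 16 did not and 0 passed the threshold. Of 419 such values in the VitC comparisons under all alternatives, 3 changed sign and 0 moved by more than the spread between replicates. Fits without a filter, with the replicate block or to 2 groups only leave each limma fold change as it is. Their values kept their sign by construction and say nothing on stability. The same holds for fits that left out a library outside the groups compared. Replicate numbers were not treated as pairs in the main fits. Same-numbered libraries of different groups correlated above 0.1 in 4 of 9 VitC pairs (-0.192 to 0.465) and 6 of 18 Tet pairs (-0.567 to 0.529). Of the VitC libraries 8 of 9 correlated best with their own number, and of the Tet libraries 0 of 12. Whether the numbers pair the VitC samples is therefore undecided. With the replicate block, 4 genes were called lower in VitC+/- against WT (2 without it) and 7 in WT against VitC+ (0 without it). Over all entries the block gave 2228 lower calls in VitC+/- against WT (2003 without it). In WT against VitC+ the block gave 590 lower and 184 higher calls (0 and 0 without it), and 0 in each Tet comparison. With the RPKM as deposited, the median of all entries was 0.13 in VitC+/- against VitC+ and 0.12 in WT against VitC+, beside 0.02 and 0.04, and the calls were 403 lower and 473 higher (946 and 746 scaled) and, against WT, 1151 and 1565 (2003 and 1931 scaled). DESeq2 called 10 lower and 3 higher genes in Tet1 cKO, 10 and 4 in Tet2 cKO and 12 and 1 in Tet1/2 cKO.

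Leaving out 1 library at a time, 5 to 9 genes were called lower in VitC+/- against VitC+ (5 without VitC+ 3; median -3.13 to -2.16), 1 to 4 against WT (1 without WT 1 or VitC+/- 1, 4 without WT 2; median -1.46 to -0.45) and 0 to 4 in WT against VitC+ (4 without WT 1; median -2.16 to -1.25). Over all entries the lower calls ran from 315 to 1217, 1143 to 2042 and 0 to 531 (531 without WT 1). In the Tet comparisons 0 genes were called each time, with medians of 0.01 to 0.67 in Tet1 cKO, -0.65 to 0.62 in Tet2 cKO and -1.14 to -0.68 in Tet1/2 cKO.

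In VitC+/- against WT, Rhbdl2 turned to 0.11 without WT 1 and 0.098 without VitC+/- 2, and Crygn to 0.028 without WT 3. In the Tet comparisons these signs turned, with the range over libraries left out and then the edgeR and DESeq2 values where these turned too. In Tet1 cKO, A2m ran from -0.51 to 0.94 (-0.98 and -0.97), Rhbdl2 from -0.30 to 0.61 (-0.24 and -0.25) and Slc36a2 from -0.014 to 0.65 (-0.0048 and -0.011). In Tet2 cKO, Cdh15 ran from -0.14 to 0.70, Col13a1 from -0.23 to 0.93, Crygn from -0.96 to 0.10, Slc13a5 from -0.94 to 0.37, Col22a1 from -0.56 to 0.67 (0.20 and 0.18), Entpd3 from -0.83 to 0.75 (0.27 and 0.25), Prss35 from -0.67 to 0.57 (0.077 and 0.057), Rhbdl2 from -0.65 to 0.89 (0.40 and 0.38) and Slc36a2 from -0.63 to 0.49 (0.066 and 0.047). In Tet1/2 cKO, Crygn ran from -0.15 to 0.58. The cause was not tested, beyond the count tests holding 11 libraries.

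In MC3T3-E1 cells, loci with lower H3K27me3 numbered 5, but 1 at a -log10 q of at least 5, 3 within 30 kb of the start site, and 0 by number of peaks, by which 4 were higher. Loci with lower H3K9me3 numbered 5, but 0 at a -log10 q of at least 5 and 2 by number of peaks, and 1 was higher within 30 kb of the start site. By number of peaks the log2 ratio of H3K27me3 was 0.58 at Entpd3, 0.32 at Rhbdl2, 1.37 at Col13a1 and 0.35 at Col22a1, and that of H3K9me3 was 0.22 at Crygn. In femur 5hmC of VitC+/- against VitC+, the log2 ratio of Col22a1 was 0.50 within 30 kb of the start site (-0.57 over the locus). The cause was not tested. Depth limits WT 1 (an estimated 7.57 M reads) and Crygn, which reached 1 RPKM in 4 of 9 VitC libraries.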
